A study of Mus musculus with 4 samples.

Results

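The HoxD cluster is a run of 9 homeobox genes on mouse chromosome 2, and its members were taken by name: every row of the expression table called Hoxd with a number, which gave 9 of 17568 genes. The study cultured E10.25 forelimbs (31 to 34 somites) of wild-type embryos of the Swiss Webster strain, either as controls or with cyclopamine, an alkaloid that blocks the Hedgehog transducer Smoothened. There were 2 RNA-seq libraries of each kind (control 1 and 2, cyclopamine 1 and 2), and all came from the same tissue, strain, genotype and stage. The labels call them biological replicates but do not say how many embryos were pooled in each, so p-values measure the spread between these libraries. The sources used here do not state the dose, the vehicle or the length of culture. The question was how the forelimb transcriptome differs when Hedgehog signalling is blocked, and here it is asked of the HoxD genes.

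Hox genes encode DNA-binding homeodomain proteins that assign position along the body and along the limb, and the genes of a cluster are switched on in the order in which they lie. In the limb bud the members at the Hoxd13 end, called 5′, are transcribed mainly in posterior and distal mesenchyme, while those at the Hoxd1 end, called 3′, are used earlier and more widely, also in the neural tube and somites. Sonic hedgehog from the posterior margin of the bud keeps GLI3 from being processed to a repressor, and that repressor is known to hold down the 5′ Hoxd genes.

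The cluster lies on the plus strand of GRCm38 (the mm10 build named in the submitters' processing notes) between 74668310 (start of Hoxd13) and 74765142 (end of Hoxd1), a length of 96.8 kb in the GENCODE vM21 annotation. The order along the chromosome, by annotated end, is Hoxd13, Hoxd12, Hoxd11, Hoxd10, Hoxd9, Hoxd8, Hoxd4, Hoxd3 and Hoxd1. The windows before the start sites of Hoxd13, Hoxd12, Hoxd11 and Hoxd10 are shown because the first 3 of these genes fell and Hoxd10, their neighbour, did not pass the test. Each is the 250 bases before a RefSeq start (GRCm38.p6, plus strand, 5′ to 3′), with CG dinucleotides in capitals. None of these 4 windows overlaps an annotated exon, and for Hoxd11 the start of the coding transcript was used.
Hoxd13, chr2:74667975-74668224: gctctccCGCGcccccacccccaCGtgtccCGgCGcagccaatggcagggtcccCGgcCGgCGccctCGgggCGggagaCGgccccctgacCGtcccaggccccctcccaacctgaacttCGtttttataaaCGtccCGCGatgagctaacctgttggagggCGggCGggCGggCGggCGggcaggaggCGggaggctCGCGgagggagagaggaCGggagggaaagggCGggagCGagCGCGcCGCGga
Hoxd12, chr2:74674763-74675012: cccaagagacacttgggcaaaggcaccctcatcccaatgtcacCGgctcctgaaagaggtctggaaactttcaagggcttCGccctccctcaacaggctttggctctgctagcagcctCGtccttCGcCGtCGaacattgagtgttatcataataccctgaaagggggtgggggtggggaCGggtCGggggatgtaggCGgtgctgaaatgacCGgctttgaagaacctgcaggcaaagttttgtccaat
Hoxd11, chr2:74682073-74682322: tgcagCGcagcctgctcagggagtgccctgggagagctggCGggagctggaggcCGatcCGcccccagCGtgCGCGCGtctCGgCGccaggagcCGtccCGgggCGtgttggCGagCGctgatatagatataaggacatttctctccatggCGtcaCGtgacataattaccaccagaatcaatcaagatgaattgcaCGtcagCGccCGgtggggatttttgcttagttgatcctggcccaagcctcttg
Hoxd10, chr2:74691641-74691890: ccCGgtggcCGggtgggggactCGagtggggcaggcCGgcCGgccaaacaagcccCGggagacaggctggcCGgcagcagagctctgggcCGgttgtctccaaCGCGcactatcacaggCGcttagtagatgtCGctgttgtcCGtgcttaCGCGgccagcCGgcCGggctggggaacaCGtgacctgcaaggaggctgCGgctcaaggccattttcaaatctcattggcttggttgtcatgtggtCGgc

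These windows hold 31 CG dinucleotides for Hoxd13, 10 for Hoxd12, 20 for Hoxd11 and 20 for Hoxd10, beside a median of 6 (quartiles 2 and 16) over 32536 promoter windows of the same length. All 4 windows were above this median, that of Hoxd12 within the quartiles and the others above the upper one, and Hoxd10 has the same count as Hoxd11. The GLI motif GACCACCCA was searched on both strands. It was found in 0 of the 10 HoxD windows, both exactly (0.218% of all windows hold it) and with 1 mismatch allowed (5.82% of all windows). A pair of motifs bound by posterior HOX proteins, CTCGTAAA (0.111% of all windows) and CCAATAAA (1.01%), also gave 0 matches on either strand. TATAAA, held by 12.3% of all windows, was found before Hoxd13, 124 bases from its start and on the gene's own strand, and before Hoxd4 on the opposite strand. These searches cover 250 bases before each start and none of the distant enhancers of the cluster.

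Deposited values corresponded to between 9779589 and 13555492 gene-assigned reads per library. Values are given in CPM, the usual counts-per-million unit on library sizes scaled by the authors, in which a single read is worth 0.0735 to 0.103 CPM. Tbx5, the forelimb T-box gene, measured 200.9, 224, 193 and 226 CPM in control 1, control 2, cyclopamine 1 and cyclopamine 2, whereas the hindlimb genes Tbx4 and Pitx1 reached at most 9.90 and 2.35 CPM. The Hedgehog targets Gli1 (56.2, 56.7, 8.05 and 4.70 CPM in the same order) and Ptch1 (116, 107, 51.3 and 32.2 CPM) fell. Transcripts of neural tube and neurons also differed: the 13 marker genes with a row summed to 45.0 and 78.7 CPM in the controls but 8.20 and 10.8 CPM under cyclopamine, with Olig3, Neurog1, Neurog2, Neurod4 and Ina at 0 in both cyclopamine libraries. Of the 8 neural markers tested 6 fell, where 0.236% of all genes tested fell. Olig3, Neurog1, Neurog2 and Neurod4 were too sparse to be tested, with 4 to 25 reads in each control. The part of neural transcripts in the HoxD values was not tested. Summed markers of somite and trunk mesoderm came to 81.4, 115, 98.4 and 109 CPM in the same order, those of blood and vessel to 1567, 906, 2418 and 1611 CPM, and those of limb mesenchyme to between 1709.8 and 1968 CPM. The Y-linked genes Kdm5d, Ddx3y, Uty and Eif2s3y, looked at after their values had been seen, were lower in both cyclopamine libraries than in both controls (Ddx3y at 81.8, 65.8, 51.4 and 25.7 CPM), and X-linked Xist measured 532, 1026, 993 and 1900.1 CPM. The part of these differences in the HoxD values was not tested either.

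Hoxd13, Hoxd12 and Hoxd11, the 5′ members, fell in cyclopamine to 39.1% to 53.3% of their control means, and Hoxd12 fell most. The 6 other members, from Hoxd10 to Hoxd1, did not pass the test, with means between 72.0% and 118% of control. In limma, fitted across the 13568 genes whose mean reached 1 CPM and with p-values adjusted over all of them, 3 of the 9 members fell and 0 rose, where 0.236% of all genes tested fell. All 9 members were tested, and none owed this to a single group. In bulk tissue, fewer cells that transcribe a gene and less RNA in each such cell cannot be told apart.

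**Figure D1:**
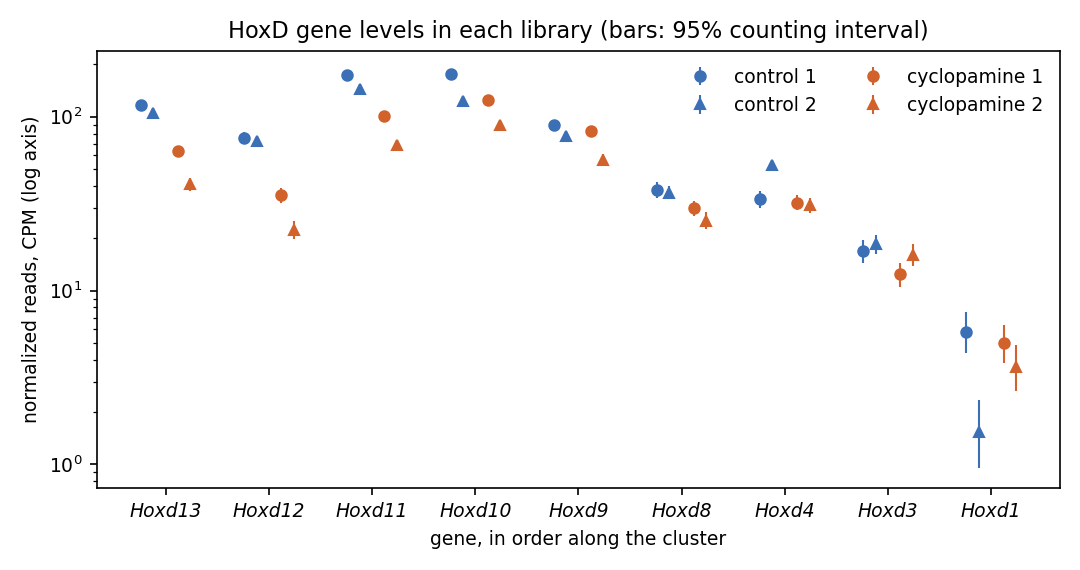
Level of each HoxD gene in the 4 libraries, in CPM on a log axis, with genes in order along the cluster and bars for 95% exact Poisson counting intervals. Both cyclopamine libraries lie below both controls for Hoxd13, Hoxd12 and Hoxd11, and by smaller gaps for Hoxd8, Hoxd4 and Hoxd3. For Hoxd10, Hoxd9 and Hoxd1 the groups overlap.

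Hoxd13 encodes the most posterior HOXD protein, needed for digit formation, and mutations in it cause fused and extra digits. It stood at 117 and 105 CPM in the controls, compared with 63.7 and 40.9 CPM under cyclopamine, on 1136, 1429, 808 and 505 reads. The groups did not overlap, and cyclopamine 2 was the lowest. The control mean was 111 ± 8.64 CPM and the cyclopamine mean 52.3 ± 16.1 CPM (SD, n = 2 each). The fitted log2 fold change was -1.11 (SE 0.19; adjusted p = 0.0189, limma).

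Hoxd12, which is transcribed in the posterior limb bud next to Hoxd13, stood at 75.6 and 72.1 CPM in the controls, compared with 35.3 and 22.4 CPM under cyclopamine. The control libraries differed by a factor of 1.05 and the cyclopamine libraries by 1.57, and the groups stood well apart. The log2 fold change was -1.38 (SE 0.19; adjusted p = 0.00394, limma), which ranked 11 by p among all genes tested. These values rested on 733, 982, 447 and 277 reads.

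Hoxd11 acts with its paralog Hoxa11 in the forearm skeleton. Its controls had 174 and 145 CPM, the cyclopamine libraries 101 and 68.8 CPM, so that both cyclopamine libraries were again below both controls. The control mean was 159.5 ± 20.5 CPM and the cyclopamine mean 85.0 ± 22.9 CPM (SD, n = 2 each), with a log2 fold change of -0.92 (SE 0.18; adjusted p = 0.0454, limma). This call lay close to the threshold, and it ended without control 1 (-0.79, adjusted p = 0.124) or without cyclopamine 2 (-0.65, adjusted p = 0.148). The quasi-likelihood test of edgeR on the recovered reads put Hoxd11 at an adjusted p of 0.0728. By that test 2 members, Hoxd12 and Hoxd13, fell, beside 0.251% of all genes. Exons of Hoxd11 share 10.8% of their length with Gm28309, a transcript annotated across Hoxd11 and Hoxd10 on the same strand.

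The calls of Hoxd12 and Hoxd13 held with each library left out in turn, with adjusted p of at most 0.00689 and 0.0341 in limma, and ended when limma was run without an intensity trend or with low genes kept in (adjusted p from 0.210 to 0.458). In the authors' deposited table, which gives a fold change and a false discovery rate per gene, the same 3 members are lower at a false discovery rate under 0.05, beside 0.347% of all its genes. The log2 fold changes in the authors' deposited table are -1.36 for Hoxd12, -1.09 for Hoxd13 and -0.91 for Hoxd11.

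Hoxd10 and Hoxd9, the next genes along the cluster, are transcribed more widely in the early bud and did not pass. Hoxd10 stood at 176 and 123 CPM in the controls, compared with 125 and 90.1 CPM under cyclopamine, so that cyclopamine 1 lay just above control 2. Its log2 fold change was -0.47 (SE 0.19; adjusted p = 0.739, limma), and it was -0.21 without control 1 and -0.73 without control 2. Hoxd9 measured 89.2 and 77.1 CPM against 82.4 and 56.4 CPM. Only cyclopamine 2 was below both controls, the log2 fold change was -0.28 (SE 0.18), and without cyclopamine 2 it was -0.01.

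Hoxd8, which lies between Hoxd9 and Hoxd4, had 38.0 and 36.6 CPM in the controls, compared with 29.7 and 25.2 CPM under cyclopamine. The groups did not overlap, but the difference (-0.44, SE 0.17, limma adjusted p = 0.71) did not pass over all genes. Non-overlapping lower values were common across the genome: 6 of the 9 members and 15.8% of all genes tested had both cyclopamine libraries below both controls. The 6 were Hoxd13, Hoxd12, Hoxd11, Hoxd8, Hoxd4 and Hoxd3. The gap between the nearest libraries of the groups was 36.9 to 43.8 CPM for the first 3 and 0.775 to 6.84 CPM for the others. A gap in CPM grows with the level of a gene. In log2 values less the control mean, control 2 and cyclopamine 1 stood at -0.13 and -0.65 for Hoxd11. For Hoxd8 they stood at -0.03 and -0.32.

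The 3′ members follow, Hoxd4, Hoxd3 and Hoxd1, and none of them passed the test. Hoxd4, known for its hindbrain and neural tube expression, had 33.5 and 52.7 CPM in the controls, compared with 32.0 and 31.0 CPM under cyclopamine. Control 2 alone stood high, and it was also the library with the most neural marker transcripts. A link between these was not tested. The group 4 paralogs Hoxa4, Hoxb4 and Hoxc4 were lower in control 2 than in control 1. The log2 fold change of Hoxd4 was -0.41 (SE 0.20, adjusted p = 0.875, limma). It became -0.09 without control 2 and -0.74 without control 1. Hoxd3, which patterns the neck vertebrae, measured 16.8 and 18.5 CPM against 12.4 and 16.0 CPM (-0.31, SE 0.21). Its log2 fold change was -0.13 without cyclopamine 1 and -0.49 without cyclopamine 2. In the annotation 62.3% of the exon length of Hoxd3 and 52.3% of that of Hoxd4 overlaps other genes on the same strand, including each other, so the division of reads between this pair is uncertain.

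Hoxd1, at the 3′ end of the cluster, is a gene of early embryos and sensory neurons. Its controls had 5.78 and 1.54 CPM, the cyclopamine libraries 4.97 and 3.65 CPM, on 56, 21, 63 and 45 reads. The controls differed from each other by a factor of 3.75 and enclosed both cyclopamine values. The log2 fold change of 0.41 (SE 0.44) did not pass, and it was -0.40 without control 2 and 1.22 without control 1.

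The 3 largest decreases thus lay at the 5′ end and the only positive value at the 3′ end. Gene by gene the order was not kept. Hoxd12 fell more than Hoxd13, and the decrease of Hoxd9 was smaller than those of Hoxd8, Hoxd4 and Hoxd3 further 3′. Spearman's rho between order and log2 fold change was 0.883 over the 9 genes in the fit of all 4 libraries. It is given as a description, since the genes share the same 4 libraries. Among the members the more abundant ones also had the more negative values (rho -0.6 between mean CPM and log2 fold change). The median log2 fold change of the 9 genes was -0.44, beside 0.00 for all genes tested. Of the members 8 were below 0, as were 49.0% of all genes.

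**Figure D2:**
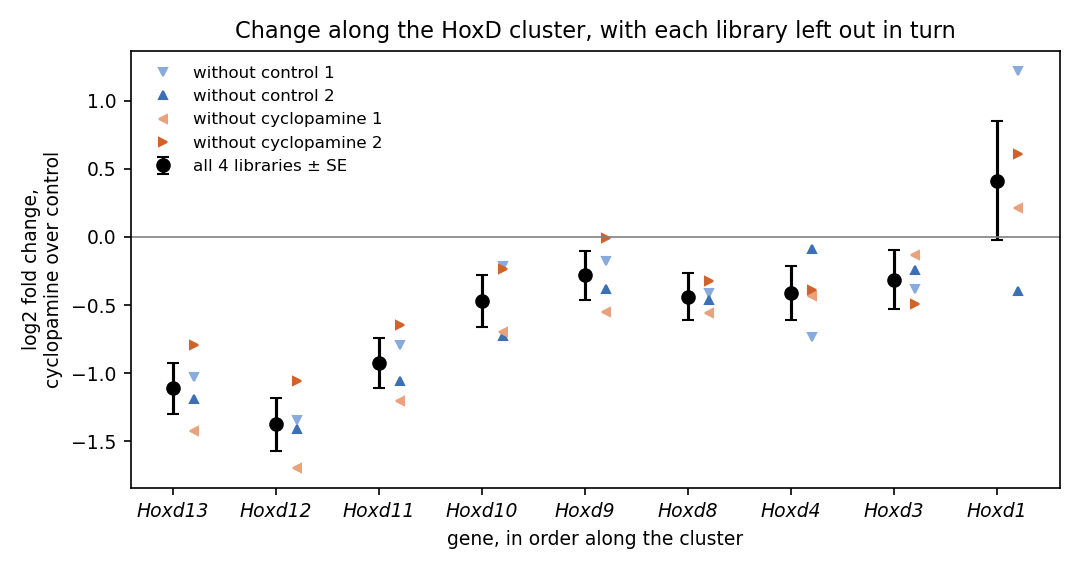
Log2 fold change of each HoxD gene, cyclopamine over control, with genes in order along the cluster. Black points show the fit of all 4 libraries with SE, and triangles the fits that leave out a library; the triangles of Hoxd13, Hoxd12 and Hoxd11 all lie at or below -0.65, those of Hoxd1 lie on both sides of 0.

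A share of reads within the cluster does not depend on the scaling between libraries, so the composition was compared as well. Hoxd11, Hoxd12 and Hoxd13 were the members called in these same libraries. Their lower share therefore restates those calls and is not separate support. Hoxd11, Hoxd12 and Hoxd13 together gave 50.5% of HoxD reads in control 1 (95% exact binomial interval 49.4 to 51.7) and 51.0% in control 2 (49.96 to 52.1). They gave 41.2% in cyclopamine 1 (39.9 to 42.4) and 37.3% in cyclopamine 2 (35.8 to 38.7). The counting intervals of the groups were apart, and the mean share was 11.6 percentage points lower in cyclopamine, 39.2% ± 2.75 against 50.8% ± 0.337 (SD, n = 2 each). An exact permutation test over libraries, two-sided, gave p = 0.333, the smallest that 2 against 2 libraries allow.

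Shares are parts of a whole, so a lower share of Hoxd11 to Hoxd13 raises the shares of the other members. Within the cluster the share of Hoxd9 was higher in cyclopamine, at 17.0% and 15.9% against 12.3% and 12.2% in the controls. Its mean level was not higher, at 69.4 CPM in cyclopamine against 83.2 CPM in control. Hoxd10 made up 24.2% and 19.4% of HoxD reads in the controls and 25.6% and 25.4% in cyclopamine. Between Hoxd13 and Hoxd9, Hoxd13 reads were 56.8% and 57.6% of the pair in the controls and 43.6% and 42.0% in cyclopamine. Between the neighbours Hoxd11 and Hoxd10, the Hoxd11 share was 49.8% and 54.2% against 44.8% and 43.3%. In each of these shares the library values of the groups did not overlap, and the exact permutation p was again 0.333. For the share of Hoxd10 the counting interval of control 1 overlapped those of both cyclopamine libraries. Of the joint reads of Hoxd13 and Hoxd12, Hoxd13 made up 60.8% and 59.3% in the controls and 64.4% and 64.6% in cyclopamine. The exact permutation p was 0.333 here too, and the counting interval of control 1 overlapped those of both cyclopamine libraries.

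**Figure D3:**
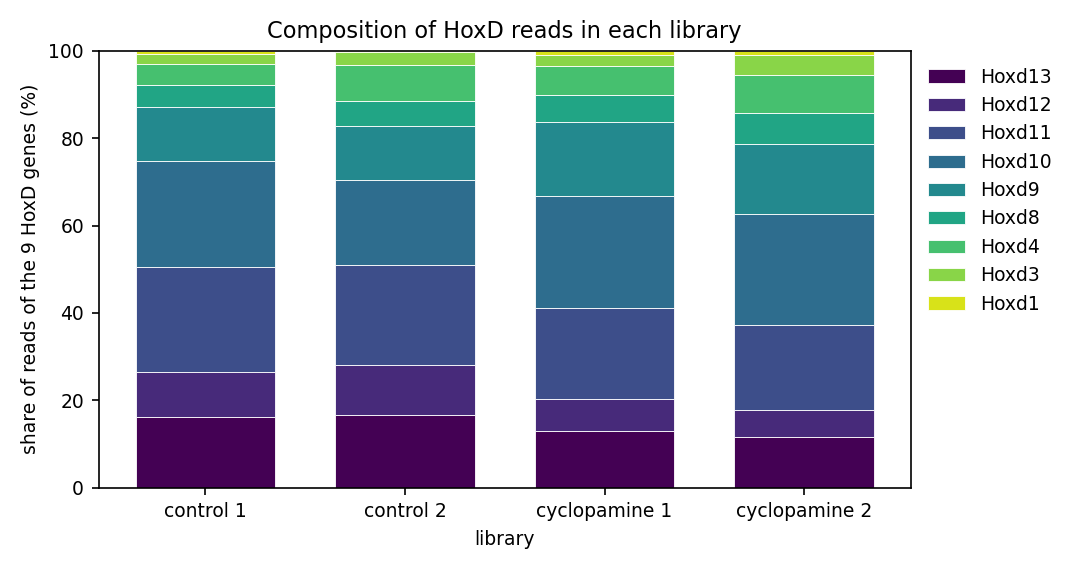
Share of the reads of the 9 HoxD genes that each gene contributes, in percent, for each library. The 3 lowest segments, Hoxd13, Hoxd12 and Hoxd11, together reach 50.5% and 51.0% in the controls and 41.2% and 37.3% in cyclopamine.

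Levels of different genes were compared per kilobase of annotated exon. In the controls Hoxd10 was highest at 82.1 ± 20.6 CPM per kb (SD, n = 2), followed by Hoxd13 at 44.7 ± 3.48, Hoxd9 at 38.9 ± 4.01, Hoxd11 at 37.9 ± 4.87 and Hoxd12 at 29.2 ± 0.972. Hoxd4 (14.6 ± 4.61), Hoxd8 (13.6 ± 0.356), Hoxd3 (4.22 ± 0.286) and Hoxd1 (1.97 ± 1.61) followed. Neighbours in this order whose library values overlapped were Hoxd9 and Hoxd11, and Hoxd4 and Hoxd8. In cyclopamine Hoxd10 (59.1 ± 13.4) was again highest, and Hoxd9 (32.5 ± 8.62) came before Hoxd13 (21.1 ± 6.50) and Hoxd11 (20.2 ± 5.44). There the values of Hoxd13 and Hoxd11 overlapped, as did those of Hoxd12 (11.4 ± 3.58) with Hoxd4 (10.7 ± 0.258) and of Hoxd4 with Hoxd8 (10.01 ± 1.17). The place of Hoxd11 depends on the length used. Its annotated exons span 4212 bases including a long noncoding transcript, but its coding transcript has 1111 bases. Per kilobase of the latter its mean was the highest of all, at 144 ± 18.5 in control and 76.5 ± 20.6 in cyclopamine. In cyclopamine its library values on that length (91.1 and 61.9) overlapped those of Hoxd10 (68.6 and 49.6).

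The paralogs of the other Hox clusters, which arose by duplication and carry like homeodomains, were compared with HoxD by group number. Of 27 HoxA, HoxB and HoxC genes, 27 were tested and 0 passed in either direction. Their median log2 fold change was -0.04, with 14 below and 13 above 0. For the 8 of them in groups 9 to 13 the median was -0.21, beside -0.92 for the HoxD genes of these groups. Of these 8 paralogs 6 were below 0, as were 49.0% of all genes tested. In 4 of the 8 both cyclopamine libraries were below both controls, as in 15.8% of all genes tested. The 9 HoxD genes made up 44.5% and 48.6% of reads from all 36 Hox genes in the controls, and 36.1% and 35.2% in cyclopamine (exact permutation p = 0.333).

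Hoxa13, the HoxA gene of group 13 and the partner of Hoxd13 in the digit plate, had 11.8 and 10.9 CPM in the controls, compared with 4.02 and 6.97 CPM under cyclopamine. Its log2 fold change of -1.03 (SE 0.28) was near that of Hoxd13 but did not pass over all genes (limma adjusted p = 0.289), and its reads were fewer. Hoxa11 measured 76.1 and 87.2 CPM against 68.5 and 61.3 CPM (-0.33, SE 0.15), which did not pass. Hoxd11 made up 69.6% and 62.4% of the reads of group 11 in the controls and 59.6% and 52.9% in cyclopamine. The share of Hoxd10 in group 10 was 63.7% and 59.2% against 57.3% and 52.1%. For the share of Hoxd13 in group 13 the groups overlapped, at 87.7% and 87.9% against 89.1% and 77.9%. They also overlapped for Hoxd9 in group 9, at 42.2% and 45.2% against 44.3% and 44.6%. In group 10, the log2 fold change was -0.07 (SE 0.15) for Hoxa10 and 0.18 (SE 0.44) for the sparse Hoxc10.

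In group 9, Hoxb9 was lower in both cyclopamine libraries (31.6, 34.7, 27.1 and 12.7 CPM), with a log2 fold change of -0.81 (SE 0.26; adjusted p = 0.471, limma). Hoxc9 measured 6.29, 6.10, 5.13 and 2.998 CPM (-0.59, SE 0.31) and Hoxa9 had a log2 fold change of -0.10 (SE 0.20). Hoxc13, a gene of skin and hair, had a log2 fold change of 0.04 (SE 0.32). Differences between paralogs in their response were not tested.

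**Figure D4:**
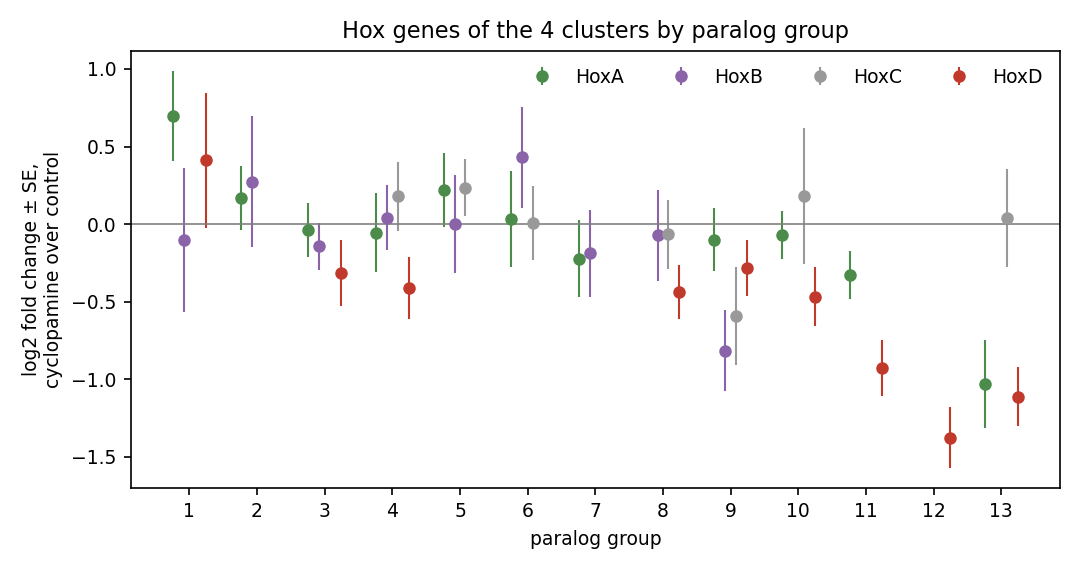
Log2 fold change with SE of every tested Hox gene, cyclopamine over control, by paralog group and coloured by cluster. From group 11 upward the HoxD genes lie between -0.92 and -1.38, and the lowest of the other clusters are Hoxa13 at -1.03, Hoxb9 at -0.81 and Hoxc9 at -0.59, with the rest between -0.33 and 0.70.

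Genes beside the cluster were examined because HoxD enhancers lie in large flanking domains that hold other genes. Within 1 Mb of either end, 9 genes other than the members had a row, of which 7 were tested and 0 passed; their median log2 fold change was 0.00. Evx2, a homeobox gene 8.75 kb before Hoxd13 that shares its digit enhancers, was near the floor of detection, with 6, 11, 0 and 5 reads in control 1, control 2, cyclopamine 1 and cyclopamine 2. Lnp, now called Lnpk, which encodes an endoplasmic reticulum protein and lies 88.9 kb away on the same side, measured 63.8 and 79.8 CPM against 69.7 and 58.8 CPM (-0.15, SE 0.17). On the Hoxd1 side, Mtx2, a mitochondrial transport gene 60.7 kb away, measured 56.5 and 56.9 CPM against 72.3 and 61.2 CPM (0.23, SE 0.16). The antisense transcript 1700109F18Rik (Hoxd3os1) within the cluster measured 3.92, 1.84, 2.998 and 0.891 CPM and did not pass.

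**Figure D5:**
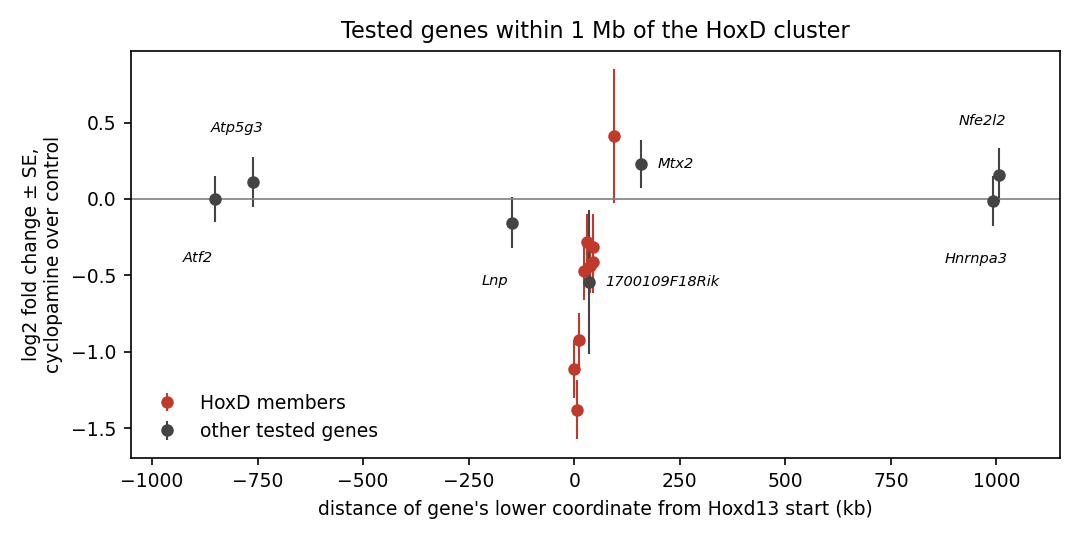
Log2 fold change with SE, cyclopamine over control, of tested genes within 1 Mb of the HoxD cluster, by distance in kb from the start of Hoxd13. The neighbours outside the cluster lie between -0.15 and 0.23, and the lowest points are Hoxd12, Hoxd13 and Hoxd11.

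Proteins that act on or with HOXD proteins were described from lists drawn up with earlier results of these data known. Among genes of the Hedgehog input to the bud, Gli1 and Ptch1 fell, with log2 fold changes of -3.10 (SE 0.23) and -1.44 (SE 0.19). Gli3, which encodes the repressor of 5′ Hoxd genes, had 325 and 354 CPM in the controls, compared with 339 and 395 CPM under cyclopamine (0.11, SE 0.16), and the groups overlapped. Hand2, a posterior mesenchyme factor that acts upstream of Shh, was lower in both cyclopamine libraries (-0.53, SE 0.15, limma adjusted p = 0.332). Shh itself measured 7.84 and 14.5 CPM against 6.07 and 8.02 CPM.

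The 9 cofactors of the TALE homeodomain class, which bind DNA together with HOX proteins, included 0 genes past the threshold (5 below 0, 4 above, median -0.02). Meis1, a marker of the proximal limb, had 128 and 109.6 CPM in the controls against 152 and 137 CPM (0.29, SE 0.15), higher in both cyclopamine libraries without passing. Of 33 tested genes for Polycomb and Trithorax proteins and chromatin architecture, which keep Hox clusters silent or active, 0 passed, and their values ran from -0.25 to 0.27. Among 5 limb genes reported to act downstream of posterior HOX proteins 0 passed. All 5 were below 0, as were 49.0% of all genes tested. In 2 of them, Bmp2 and Bmp7, both cyclopamine libraries were below both controls, as in 15.8% of all genes tested. Bmp7, a growth factor of the bud, measured 59.9 and 55.5 CPM against 47.3 and 44.2 CPM (-0.33, SE 0.16).

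Genes with the most similar profile over the 4 libraries were found by the root mean square difference of log2 values after subtracting each gene's mean. For Hoxd13 the 5 nearest of 13567 genes were Sema5b (0.04), Smpd3 (0.07), Hoxd11 (0.10), Sel1l3 (0.12) and the Y-linked Kdm5d (0.12). Hoxd12 came 9th at 0.14, while Hoxd10 (0.35) and Hoxd9 (0.42) ranked 192 and 440. For Hoxd10, the member of highest mean CPM, the nearest were Zfp429, 6430573F11Rik, Cited1, Dhrs7 and 4930556M19Rik, at distances of at most 0.04. Hoxd9 ranked 148 and Hoxd8 366 from Hoxd10. With 4 libraries many genes can share a profile, and none of the nearest genes other than Hoxd11 and Kdm5d passed the test between groups.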

How the data were processed

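RNA-seq was done on 2 control and 2 cyclopamine libraries, grouped by their labelled titles. The authors deposited a normalized signal per gene and library, in CPM of a scaled library size, whose steps gave whole reads in 100% of values (within 0.01 of a read). A deposited table of the comparison gives the authors' log2 fold change, mean log2 CPM, p-value and false discovery rate, with the test not stated. The submitters' processing notes name, without roles, the build mm10, HTSeq 0.5.4p5, TopHat2 2.0.9, edgeR 3.4.2, SAMtools and Bowtie; the sources used here do not state how strand was handled. Of the table's names 98.8% matched GENCODE vM21 or a RefSeq synonym.

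All 13568 genes whose mean reached 1 CPM were fitted with limma-trend (limma 3.58.1, R 4.3.3) to log2(CPM + 0.5), two-sided, Benjamini-Hochberg threshold 0.05; fold changes are on that scale, which understates low genes. Alternatives, tried on the same comparison, were edgeR 4.0.16 (quasi-likelihood) and DESeq2 1.42.0 on recovered reads, other pseudocounts, filters and scalings, no trend, a replicate block and leaving out each library. The fitting code was tested on simulated data. Replicate libraries differed beyond sampling noise (chi-square per degree of freedom of 14.9 and 15.0). The same measure was 8.06 for control 1 with cyclopamine 1 and 13.2 for control 2 with cyclopamine 2. For the differently numbered pairs across groups it was 16.7 and 19.3. Poisson and Clopper-Pearson intervals are at 95% and cover counting error only, since the reads carry no molecular identifiers and are not independent; a floor of 3 reads is 0.220 to 0.310 CPM. The members and gene lists were chosen with earlier results of these data known. Named were all members, paralogs of groups 9 to 13, list genes past the threshold and up to 4 more, neighbours within 1 Mb and the 5 nearest profiles; some are given as counts, and 1 list result is not reported here. Gli3 and the tissue markers were named for their role, and the sex-linked genes after their values were seen.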

Additional observations from a re-analysis of the deposited data

How the results depend on the processing

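The 3 calls among HoxD genes (Hoxd13, Hoxd12 and Hoxd11) were made again with pseudocounts of 0.1 and 1, with median-ratio scaling and with DESeq2. Hoxd13 and Hoxd12 alone were called with upper-quartile scaling, with a filter at a mean of 5 CPM and with the quasi-likelihood test of edgeR. With no intensity trend limma called 0 members, and with no filter on low genes it also called 0; in each case 4 had an unadjusted p under 0.05, and the cause was not tested. Leaving out a library gave 2 to 3 calls. Over all genes the 38 calls became 2 with no filter and 0 with no trend (837 had an unadjusted p under 0.05, against 40 calls by edgeR and 52 by DESeq2), and 43 to 122 with a library left out, the highest without cyclopamine 1; control 1 and cyclopamine 2 also moved the count by more than 1.5 times, to 79 and 84. The log2 fold change of Hoxd1 turned to -0.40 without control 2 and was 1.22 without control 1. A lone library of a group was assumed to vary like the other group's. The other 8 members kept their sign in every alternative run. The difference in the share of Hoxd11 to Hoxd13 reads stayed between -13.5 and -9.62 percentage points in every alternative run, including values per kilobase of coding transcript, which was added after seeing the data.

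With a replicate block limma called 351 genes and 4 members, Hoxd10 (adjusted p = 0.0068) being the addition. The labels tie the numbers to no shared litter or day. Deviations of same-numbered libraries from their group means correlated at 0.27 over 13568 genes, a hint from the data and not the design. Depth limits Hoxd1 most, which rests on 21 to 63 reads per library.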

Other observations

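The cyclopamine libraries differed from each other in HoxD level. Cyclopamine 1 was above cyclopamine 2 for 8 of 9 members, with a median log2 difference of 0.47, beside 0.00 over all genes tested. The difference was 0.63 for Hoxd13, 0.64 for Hoxd12, 0.55 for Hoxd11 and 0.54 for Hoxd9, and -0.36 for Hoxd3. Between the controls, control 1 was above control 2 for 7 of 9 members, with a median of 0.16, and Hoxd4 and Hoxd3 went the other way. The Hedgehog targets Gli1 (8.05 and 4.70 CPM) and Ptch1 (51.3 and 32.2 CPM) were also lower in cyclopamine 2 than in cyclopamine 1, as were the Y-linked genes Kdm5d (37.9 and 26.8 CPM) and Uty (26.7 and 19.0 CPM).

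Of 6 vessel and blood markers 0 passed the test. All 6 were above 0, as were 6921 of the 13568 genes tested, with a median log2 fold change of 0.47. For 3 of the 6 both cyclopamine libraries were above both controls, as for 2283 of all genes tested. For the other 3 the groups overlapped. Hbb-y, an embryonic globin gene, had 508 and 252 CPM in the controls, compared with 875 and 509 CPM under cyclopamine (0.90, SE 0.28; adjusted p = 0.434, limma). In the list of ridge and limb ectoderm genes 2 of 9 fell, where 0.236% of all genes tested fell. They were Fgf8 (30.8 and 32.3 CPM against 10.18 and 9.40 CPM) and Fgf4 (5.67 and 9.70 CPM against 0.316 and 0.486 CPM). These growth factors maintain the distal mesenchyme where Hoxd13 is transcribed, and their part in the HoxD values was not tested. Over the 9 genes 5 were below 0 and 4 above, with a median log2 fold change of -0.15. Wnt7a, which marks dorsal ectoderm, had a log2 fold change of -1.06 (SE 0.27; adjusted p = 0.227, limma).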
